A study of Mus musculus with 15 samples.

Results

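The nuclear genes for subunits of the mitochondrial respiratory chain and of ATP synthase were followed by RNA-seq in WT and cKO mouse embryos at the zygote and 2-cell stages. They were selected on their symbols, namely those beginning with Atp5, Nduf, Uqcr or Cox4 to Cox8, plus Cyc1, Cycs and Sdha to Sdhd, and 90 of the 14392 genes of the deposited expression table fitted this rule. The measured value that also chose them was the table's own filter, an FPKM (fragment counts scaled by transcript length and library size) above 1 in at least 1 library. A gene kept through a single group had to differ between groups, and genes under that filter were not analysed here. WT embryos came from Usp16+/+ females and cKO embryos from Usp16fl/fl;Gdf9-Cre females, in which Cre is driven by the Gdf9 promoter in oocytes from the primordial follicle stage. USP16 removes ubiquitin from histone H2A. Females of both genotypes were young, superovulated and of the C57BL/6 background, and were mated with WT males, so that cKO embryos carried an intact paternal Usp16 allele. Each of the 4 groups had 2 libraries, each made by Smart-seq2 from 10 pooled embryos kept in KSOM medium. Separate mothers or cultures were not stated for the replicates, so p-values measured the spread between these libraries, which may be technical.

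The respiratory chain lies in the inner mitochondrial membrane. Complex I takes electrons from NADH and complex II, which is also an enzyme of the citric acid cycle, takes them from succinate, after which ubiquinone, complex III, cytochrome c and complex IV pass them on to oxygen, and complex V (ATP synthase) uses the resulting proton gradient to make ATP. Mouse embryos inherit their mitochondria from the oocyte and rely on the oxidation of pyruvate and lactate during the first cleavages, while the maternal RNA for the nuclear subunits is being replaced by RNA from the embryo's own genome.

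Of the 90 genes, 36 encode subunits of complex I, 4 of complex II, 10 of complex III or cytochrome c, 18 of complex IV (with Ndufa4, now known as a subunit of that complex) and 15 of complex V. The other 7 carry a matching symbol without being subunits. Ndufaf1 to Ndufaf4 are assembly factors of complex I, Atp5s and Atp5sl are named after ATP synthase, and Cox4nb is a neighbour of Cox4i1. The 13 subunits encoded by mitochondrial DNA were not analysed here.

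Usp16 was at 184 and 187 FPKM in WT zygotes, 16.8 and 22.0 in cKO zygotes, 168 and 183 in WT 2-cell embryos and 168 and 84.8 in cKO 2-cell embryos. Both cKO zygote libraries lay far below both WT libraries, as their labels state, with a log2 difference of -3.21 (SE 0.16, limma adjusted p = 0.00342), whereas in 2-cell embryos 1 cKO library was level with WT and the other lower. The adjusted p of Usp16 in zygotes reached 0.31 when only the 4 zygote libraries were fitted, and it was also over the threshold with 1 variance for all groups and when any 2-cell library was left out. All 11 oocyte and zygote markers were above the floor of 1 FPKM in every library, with summed levels of 21049 and 23192 FPKM in WT zygotes, 22753 and 23730.3 in cKO zygotes, 11009 and 8799.8 in WT 2-cell embryos and 7187 and 11835 in cKO 2-cell embryos, and Dppa3 was the most abundant. Dppa3 itself was at 2958 and 2472 FPKM in WT and 5888 and 8774 in cKO 2-cell embryos, whereas the other markers summed to 8051 and 6328 in WT and 1298 and 3060.7 in cKO 2-cell embryos, so the sums hid opposite differences. The 7 measured markers of 2-cell embryos, led by Zfp352, summed to 10.2 and 8.45 FPKM in WT zygotes, 13.4 and 9.75 in cKO zygotes, 404 and 630.3 in WT 2-cell embryos and 144 and 151 in cKO 2-cell embryos. Thus the stage labels were borne out in each library, and the 2-cell markers were lower in the cKO than in the WT 2-cell libraries. Their part in the differences described here was not tested.

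Of the 11 cumulus and granulosa markers, 4 were measured, and 1 of these was above the floor in each zygote library, with sums of 29.7 and 25.3 FPKM in WT zygotes, 25.8 and 25.6 in cKO zygotes, 33.9 and 43.0 in WT 2-cell embryos and 21.4 and 21.1 in cKO 2-cell embryos. The most abundant by its mean was Amhr2, which was at the floor in all 4 zygote libraries, and Has2, Ptgs2 and Fshr were not among the measured genes. For sperm and spermatids, 5 of 8 markers were measured, with sums of 28.7 and 22.2 FPKM in WT zygotes, 27.5 and 24.6 in cKO zygotes, 15.0 and 14.5 in WT 2-cell embryos and 7.65 and 7.89 in cKO 2-cell embryos, and Prm2 led them. The 2 measured white blood cell markers, led by Cd68, summed to 4.18 and 3.39 FPKM in WT zygotes, 4.49 and 2.59 in cKO zygotes, 5.08 and 9.83 in WT 2-cell embryos and 3.32 and 2.44 in cKO 2-cell embryos. The 2 measured red blood cell markers, led by Hba-a1, were at the floor in every zygote library and summed to 3.18 and 9.66 FPKM in WT 2-cell and 2.99 and 2 in cKO 2-cell embryos. In every library the markers of other cell types thus summed to far less than those of the oocyte.

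How deeply each library was sequenced is unknown, as FPKM values carry no counts. FPKM summed over all genes to between 547752 and 593317 in 7 libraries and to 770989 in cKO 2-cell replicate 2. The respiratory genes made up 2.19 and 1.66% of this sum in WT zygotes, 1.80 and 1.67% in cKO zygotes, 2.61 and 1.96% in WT 2-cell embryos and 2.15 and 2.95% in cKO 2-cell embryos. Since a share is relative to the other RNA of 10 pooled embryos, less of a transcript in each embryo, its absence from some embryos and more of other RNA cannot be told apart. The replicates of a group did not always lie together for these genes. In WT zygotes 5 of the 90 genes were higher in replicate 2 than in replicate 1, with a median log2 ratio of replicate 2 to replicate 1 of -0.56 and a median of 0 over all genes. In cKO 2-cell embryos 63 were higher in replicate 2, with a median of 0.73 against 0 over all genes, and 44 were more than 2-fold apart, compared with 14 in WT zygotes, 3 in cKO zygotes and 9 in WT 2-cell embryos. Over all 14392 genes, 4377 were more than 2-fold apart in cKO 2-cell embryos, 400 in WT zygotes, 190 in cKO zygotes and 977 in WT 2-cell embryos, so the cKO 2-cell replicates lay far apart across the table as well.

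The subunits of complex IV were the most abundant. Summed over its 18 genes, complex IV was at 6722 and 4761 FPKM in WT zygotes, 5264 and 4889.8 in cKO zygotes, 7362 and 4941 in WT 2-cell embryos and 4092 and 8321 in cKO 2-cell embryos. Cox8a, a small subunit of complex IV, led the members in 7 libraries, with 1457 and 1046 FPKM in WT zygotes, 1101 and 1034 in cKO zygotes, 2076 and 1449 in WT 2-cell embryos and 775 and 1313 in cKO 2-cell embryos. Complex II was the lowest, at 295 and 195 FPKM in WT zygotes, 279 and 227 in cKO zygotes, 65.8 and 56.4 in WT 2-cell embryos and 133 and 105 in cKO 2-cell embryos. Both WT zygote and both cKO zygote sums of complex II lay above all 4 of its 2-cell sums. Complex III went from 819 and 575 FPKM in WT zygotes and 794 and 688 in cKO zygotes to 1498 and 924 in WT 2-cell and 1615 and 4005 in cKO 2-cell embryos. The sums of complex V were 2103 and 1429 FPKM in WT zygotes, 1757 and 1499.6 in cKO zygotes, 2964 and 2417 in WT 2-cell embryos and 3705 and 4944 in cKO 2-cell embryos. For both complexes every 2-cell library was above every zygote library, and the highest sum was that of cKO 2-cell replicate 2. Complex I summed to 2759.7 and 1922 FPKM in WT zygotes, 2238 and 2009 in cKO zygotes, 2996 and 2253 in WT 2-cell embryos and 2821 and 5166 in cKO 2-cell embryos, where WT zygotes and WT 2-cell embryos overlapped.

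**Figure D1:**
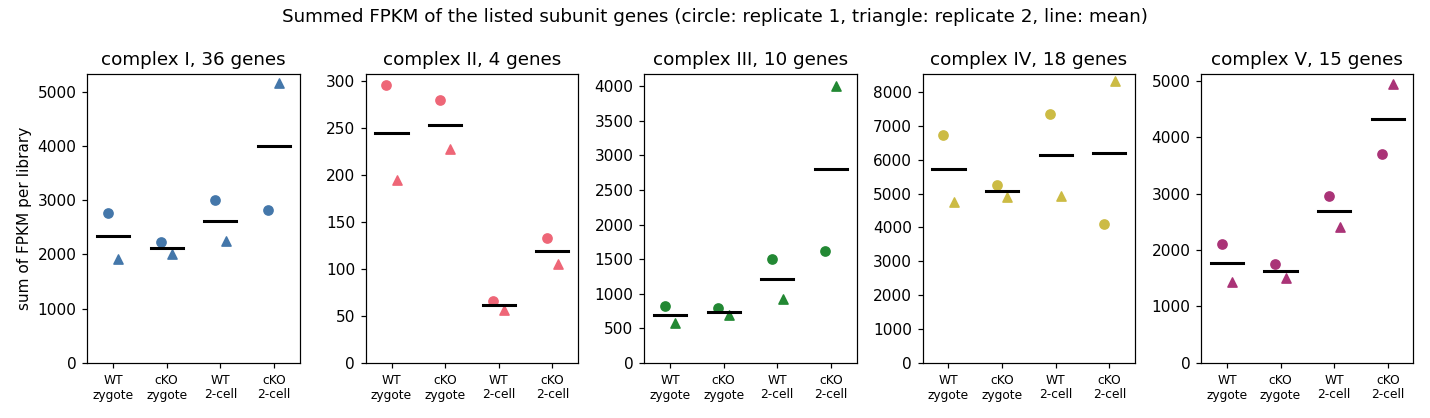
Summed FPKM of the listed subunits of complexes I to V in each of the 8 libraries, on a linear axis from 0. Complex II was at 295 and 195 FPKM in WT zygotes and at 65.8 and 56.4 in WT 2-cell embryos, and cKO 2-cell replicate 2 was the highest library for complexes I, III, IV and V.

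Between the zygote and the 2-cell stage, the make-up of this RNA changed in WT embryos, and subunits of a single complex moved in opposite directions. With limma, fitted to log2(FPKM + 1) of the 8 libraries together and adjusted over all genes, 27 of the 90 genes rose and 20 fell in WT 2-cell embryos relative to WT zygotes, against 36.6 and 14.9% of all 14392 genes. More than 3-fold differences between group means, which is the study's rule and no test, were found for 25 genes that were higher and 14 that were lower in 2-cell embryos, against 26.0 and 8.78% of all genes. The shares for these genes were thus not far from those of the whole table in the upward direction and above them in the downward direction. The median log2 difference was 0.46 for these genes and 0.27 for all genes, and 0.15 and 0.03 after median-ratio scaling of the libraries. By complex it was 0.33 for complex I, -2.19 for complex II, 1.50 for complex III, 0.46 for complex IV, 0.65 for complex V and 0.13 for the 7 other genes. With scaling these became 0.01, -2.50, 1.17, 0.15, 0.32 and -0.15, so that the direction of the last flipped.

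All 4 subunits of complex II were lower in WT 2-cell embryos by their means, and 3 of the 4 fell. Sdha, the flavoprotein that oxidizes succinate, was at 75.8 and 57.0 FPKM in WT zygotes, 52.3 and 51.4 in cKO zygotes, 10.5 and 9.97 in WT 2-cell embryos and 7.27 and 5.21 in cKO 2-cell embryos. All 4 zygote libraries lay above all 4 2-cell libraries, and the log2 difference between WT stages was -2.57 (SE 0.26, limma adjusted p = 0.000402). Sdhc and Sdhd form the membrane anchor of the complex. Sdhc was at 136 and 85.7 FPKM in WT zygotes and 23.8 and 22.7 in WT 2-cell embryos, a log2 difference of -2.17 (SE 0.46, limma adjusted p = 0.00883). Sdhd was at 53.3 and 36.9 FPKM in WT zygotes and 10.9 and 7.01 in WT 2-cell embryos, a difference of -2.22 (SE 0.40, limma adjusted p = 0.00429). The WT groups did not overlap for either gene. Sdhb, the iron-sulfur subunit, was at 29.9 and 14.9 FPKM in WT zygotes and 20.7 and 16.7 in WT 2-cell embryos. Its WT groups overlapped and it was not called (limma adjusted p = 0.82).

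In complex I, 12 genes rose and 9 fell in WT embryos. Among the core subunits, which carry the redox groups, Ndufv1, the NADH-binding subunit, was at 4.77 and 2.76 FPKM in WT zygotes and 19.8 and 18.5 in WT 2-cell embryos and rose by 2.11 on the log2 scale (limma adjusted p = 0.00751). Ndufs8, an iron-sulfur subunit, was at 12.5 and 6.92 FPKM in WT zygotes and 95.0 and 95.4 in WT 2-cell embryos and rose by 3.22 (limma adjusted p = 0.0145), and Ndufs1, the largest iron-sulfur subunit, was at 5.72 and 4.55 FPKM in WT zygotes and 10.2 and 13.7 in WT 2-cell embryos and rose by 1.07 (limma adjusted p = 0.0303). The levels of all 3 were low in zygotes, and each WT 2-cell library was above each WT zygote library. Ndufs3, a core subunit of the peripheral arm, moved the other way, at 72.0 and 56.6 FPKM in WT zygotes and 20.5 and 22.2 in WT 2-cell embryos, with a difference of -1.54 (SE 0.26, limma adjusted p = 0.00343).

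Accessory subunits of complex I that sit around the same core were among the strongest changes in both directions. Ndufa9 was at 6.36 and 3.37 FPKM in WT zygotes, 12.4 and 10.2 in cKO zygotes, 59.1 and 68.9 in WT 2-cell embryos and 42.1 and 47.6 in cKO 2-cell embryos, and rose by 3.51 in WT embryos (SE 0.43, limma adjusted p = 0.000883). Ndufa10 was at 224 and 201 FPKM in WT zygotes, 208 and 179.8 in cKO zygotes, 26.6 and 17.8 in WT 2-cell embryos and 30.2 and 17.1 in cKO 2-cell embryos, with a WT difference of -3.23 (SE 0.27, limma adjusted p = 0.000205). Ndufa9 was thus scarce in zygotes of both genotypes and Ndufa10 abundant, and neither gene's stage groups overlapped. Ndufc1 was at 7.23 and 10.7 FPKM in WT zygotes and 85.6 and 86.4 in WT 2-cell embryos and Ndufb10, of the membrane arm, at 7.95 and 6.05 FPKM in WT zygotes and 64.1 and 55.9 in WT 2-cell embryos, and they rose by 3.15 and 2.94 (limma adjusted p = 0.000676 and 0.000664). Ndufab1, the mitochondrial acyl carrier protein and the most abundant complex I transcript in zygotes, was at 444 and 359 FPKM in WT zygotes and 129 and 142 in WT 2-cell embryos, and fell by 1.55 (limma adjusted p = 0.00267). Ndufs4 fell by 2.12 (limma adjusted p = 0.00239), from 37.9 and 30.1 to 7.26 and 6.76 FPKM. Ndufa8 was at 91.0 and 38.5 FPKM in WT zygotes and 8.47 and 7.09 in WT 2-cell embryos and Ndufa5 at 34.7 and 33.4 FPKM in WT zygotes and 4.45 and 11.4 in WT 2-cell embryos, and both fell, with limma adjusted p = 0.0173 and 0.00711. Ndufs5 had the lowest difference of the complex, -3.49, but its replicates differed widely, at 83.9 and 36.7 FPKM in WT zygotes and 11.7 and 1 in WT 2-cell embryos, and it was not called (limma adjusted p = 0.0685).

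The paired core proteins of complex III went in opposite directions. Uqcrc1 was at 1.40 and 1 FPKM in WT zygotes, 1 and 1.14 in cKO zygotes, 24.1 and 23.3 in WT 2-cell embryos and 41.0 and 32.3 in cKO 2-cell embryos, and rose by 3.50 in WT embryos (SE 0.23, limma adjusted p = 0.000101). Uqcrc2 was at 152 and 133 FPKM in WT zygotes, 153 and 138 in cKO zygotes, 16.9 and 16.0 in WT 2-cell embryos and 26.5 and 31.6 in cKO 2-cell embryos, with a WT difference of -3.04 (SE 0.21, limma adjusted p = 0.000103). Uqcrc1 was at or near the floor in all 4 zygote libraries, where Uqcrc2 was among the most abundant transcripts of the complex, and in 2-cell embryos both were within the same range. The subunits that carry electrons rose together. Uqcrfs1, the Rieske iron-sulfur protein, was at 13.3 and 15.5 FPKM in WT zygotes and 129 and 99.4 in WT 2-cell embryos, and rose by 2.89 (SE 0.33, limma adjusted p = 0.000668). Cyc1, cytochrome c1, was at 5.52 and 2.51 FPKM in WT zygotes and 18.6 and 26.7 in WT 2-cell embryos, and Cycs, the soluble cytochrome c, at 43.6 and 41.1 FPKM in WT zygotes and 107 and 89.9 in WT 2-cell embryos, and they rose by 2.29 and 1.19 (limma adjusted p = 0.0101 and 0.0122). In all, 6 of the 10 genes rose, among them the small subunits Uqcr10 and Uqcrq, and Uqcrc2 was the 1 that fell.

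In complex IV, 3 of 18 genes rose and 4 fell in WT embryos. Cox7c, a small subunit present in all tissues, was at 14.4 and 10.6 FPKM in WT zygotes and 138 and 73.4 in WT 2-cell embryos, and rose by 2.93 (SE 0.37, limma adjusted p = 0.000963). Cox7b was at 40.0 and 32.1 FPKM in WT zygotes and 218 and 114 in WT 2-cell embryos and rose by 2.11 (limma adjusted p = 0.00893). Cox5a and Cox5b, which cap the catalytic core, were among the most abundant genes in zygotes and fell. Cox5a was at 907 and 832 FPKM in WT zygotes and 282 and 304 in WT 2-cell embryos, a difference of -1.56 (SE 0.20, limma adjusted p = 0.000967), and Cox5b at 732 and 432 FPKM in WT zygotes and 222 and 196 in WT 2-cell embryos, a difference of -1.42 (SE 0.41, limma adjusted p = 0.0283). Cox7a2l, a gene linked to supercomplexes of complexes III and IV, fell by 1.84 (limma adjusted p = 0.00213). Its level went from 101 and 92.0 to 32.3 and 21.0 FPKM. Cox4i1, which is needed to assemble the complex, was at 131 and 98.1 FPKM in WT zygotes and 125 and 189 in WT 2-cell embryos and was not called (limma adjusted p = 0.446).

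In complex V, 3 of 15 genes rose and 1 fell in WT embryos. The 2 genes with the clearest rise encode parts of the stalk that holds the catalytic head to the membrane. Atp5o, or OSCP, was at 12.9 and 7.84 FPKM in WT zygotes, 19.5 and 10.4 in cKO zygotes, 152 and 113 in WT 2-cell embryos and 191 and 271 in cKO 2-cell embryos, and rose by 3.58 (SE 0.65, limma adjusted p = 0.00444). Atp5j, coupling factor F6, was at 15.7 and 9.63 FPKM in WT zygotes, 17.5 and 15.9 in cKO zygotes, 95.3 and 77.7 in WT 2-cell embryos and 220.4 and 411 in cKO 2-cell embryos, and rose by 2.71 (SE 0.39, limma adjusted p = 0.00167). For both genes every 2-cell library was above every zygote library. Atp5a1, the alpha subunit, was at 125 and 92.3 FPKM in WT zygotes and 77.3 and 98.4 in WT 2-cell embryos, and Atp5b, the catalytic beta subunit, at 298 and 195 FPKM in WT zygotes and 309 and 466 in WT 2-cell embryos. Atp5c1, the gamma subunit of the rotor, was at 123 and 83.9 FPKM in WT zygotes and 229 and 159 in WT 2-cell embryos. None of these 3 was called (limma adjusted p = 0.569, 0.259 and 0.101), although a missed threshold does not show that they did not differ, and the WT groups of Atp5b and Atp5c1 did not overlap.

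Several subunits exist as paralogs used in different tissues, and the embryos carried more than the common forms. The c-ring of ATP synthase is encoded by Atp5g1, Atp5g2 and Atp5g3, whose mature proteins are identical. Atp5g1 was at 105 and 36.3 FPKM in WT zygotes and 637 and 522 in WT 2-cell embryos and rose by 3.20 (limma adjusted p = 0.0205), Atp5g2 was at 173 and 117 FPKM in WT zygotes and 56.3 and 25.7 in WT 2-cell embryos and fell by 1.87 (limma adjusted p = 0.016), and Atp5g3 was at 104 and 51.1 FPKM in WT zygotes and 143 and 140.1 in WT 2-cell embryos and was not called (limma adjusted p = 0.192). The main source of c-ring RNA thus passed from Atp5g2 to Atp5g1 by their levels per length. Cox6a2 and Cox7a1 are the forms of heart and skeletal muscle. Cox6a2 was at 25.2 and 14.6 FPKM in WT zygotes, 27.0 and 26.8 in cKO zygotes, 4.34 and 3.10 in WT 2-cell embryos and 1 and 1.91 in cKO 2-cell embryos, and fell by 2.11 in WT embryos (limma adjusted p = 0.00649), while Cox7a1 was at 1.79 and 1 FPKM in WT zygotes, 1 and 1 in cKO zygotes, 11.3 and 16.0 in WT 2-cell embryos and 12.8 and 31.6 in cKO 2-cell embryos, and rose by 2.61 (limma adjusted p = 0.00136). The common forms were far more abundant, with Cox6a1 at 476 and 247 FPKM in WT zygotes and 457 and 287 in WT 2-cell embryos and Cox7a2 at 304 and 218 FPKM in WT zygotes and 548 and 299 in WT 2-cell embryos.

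The testis form Cox6b2 exceeded the common Cox6b1 in every zygote library and in both WT 2-cell libraries. Cox6b2 was at 875 and 558 FPKM in WT zygotes, 727 and 656 in cKO zygotes, 1272 and 759.9 in WT 2-cell embryos and 281 and 525 in cKO 2-cell embryos, and Cox6b1 at 289 and 114 FPKM in WT zygotes, 157 and 138 in cKO zygotes, 274 and 215 in WT 2-cell embryos and 233 and 736 in cKO 2-cell embryos. In cKO 2-cell replicate 2 the order was the reverse. Cox7b2 and Cox8c, also testis forms, were low, with Cox7b2 at the floor in all zygote libraries and at 1 and 2.19 FPKM in WT and 4.18 and 16.3 in cKO 2-cell embryos, and Cox8c between 1 and 6.99 FPKM throughout. Cox4i2, the form known from lung, was at 4.51 and 1.69 FPKM in WT zygotes, 1.07 and 1.40 in cKO zygotes, 7.55 and 7.39 in WT 2-cell embryos and 19.0 and 12.6 in cKO 2-cell embryos, far under Cox4i1. Ndufa4 was at 689.8 and 492 FPKM in WT zygotes, 477 and 506 in cKO zygotes, 1100.2 and 629 in WT 2-cell embryos and 255 and 1074 in cKO 2-cell embryos. Cox8b and Ndufa4l2 were not analysed here.

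Of the 7 genes that are not subunits, 3 rose and 2 fell in WT embryos. Ndufaf1, which is needed to build the membrane arm of complex I, was at the floor in all 4 zygote libraries and at 5.16 and 7.09 FPKM in WT 2-cell embryos, and rose by 1.82 (limma adjusted p = 0.000724). Atp5s was also at the floor in all zygote libraries and reached 17.8 and 10.9 FPKM, and rose by 2.90 (limma adjusted p = 0.000236). Both passed the table's filter only through 2-cell libraries and so had to be higher there, and their true levels in zygotes are unknown. Ndufaf3 was at 5.17 and 3.07 FPKM in WT zygotes and 11.7 and 11.8 in WT 2-cell embryos and rose by 1.35 (limma adjusted p = 0.043). Ndufaf2 was at 173 and 243 FPKM in WT zygotes and 88.9 and 64.8 in WT 2-cell embryos and Ndufaf4 at 69.2 and 79.1 FPKM in WT zygotes and 45.4 and 46.7 in WT 2-cell embryos, and both fell (limma adjusted p = 0.021 and 0.0229).

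The counts for WT embryos rested on both 2-cell libraries, since without WT 2-cell replicate 1 limma called 10 genes higher and 10 lower and without WT 2-cell replicate 2 it called 13 and 9. Sdhc, Ndufa8, Ndufs1, Ndufs8, Ndufv1, Cyc1, Cycs, Cox5b, Cox6a2, Atp5g1, Atp5g2, Atp5o, Uqcrq, Ndufaf2, Ndufaf3 and Ndufaf4 were not called when either of these was left out, Sdhd, with an adjusted p of 0.0749, was not called without WT 2-cell replicate 2, and Ndufa5, Cox7b and Uqcr10, with 0.0947, 0.129 and 0.105, were not called without WT 2-cell replicate 1. Ndufs1, Uqcrq and Ndufaf3 were also not called after median-ratio scaling. Under every alternative setting that was run, 10 of the 27 genes that rose (Atp5j, Atp5s, Cox7a1, Cox7c, Ndufa9, Ndufaf1, Ndufb10, Ndufc1, Uqcrc1 and Uqcrfs1) and 8 of the 20 that fell (Cox5a, Cox7a2l, Ndufa10, Ndufab1, Ndufs3, Ndufs4, Sdha and Uqcrc2) kept an adjusted p under the threshold of 0.05, though for Atp5s and Ndufaf1 the table's filter set the direction.

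**Figure D2:**
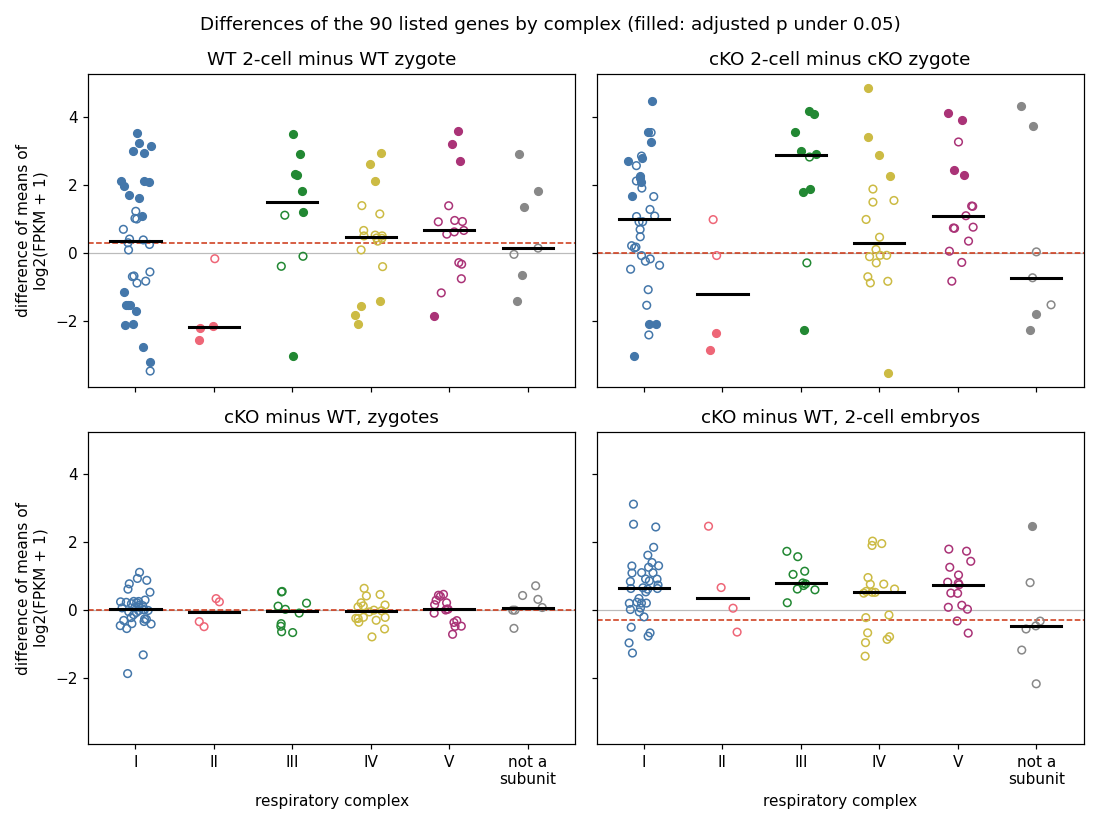
Log2 differences of log2(FPKM + 1) between groups for each listed gene, by complex, in 4 comparisons. Filled points passed limma at an adjusted p of 0.05, black lines are the medians of a complex and red dashed lines those of all genes, for example -2.19 for complex II and 0.27 for all genes in WT 2-cell embryos relative to WT zygotes.

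In zygotes, where Usp16 RNA was low in cKO embryos only, the respiratory genes of cKO and WT embryos lay close together by their median difference. None passed the adjustment in the main limma fit (0 higher and 0 lower of 90), against 0.167 and 0.0278% of all genes. Unadjusted p-values under 0.05 were found for 7 higher and 9 lower genes, against 1057 and 508 of all 14392. This result depended on the model, since a block for the replicate number gave 4 higher and 2 lower genes. Deviations of same-numbered zygote libraries correlated at 0.497, but no pairing of the replicates was described. The shares of all genes do not apply to the counts with the block. By the 3-fold rule 0 were higher and 1 lower in cKO zygotes, against 0.104 and 0.0486% of all genes. The median log2 difference was 0.01 for these genes and 0 for all genes, and by complex it lay between -0.05 for complex II and 0.04 for complex I. The 1 gene past 3-fold was Ndufs5, an accessory subunit of complex I, at 26.2 and 7.85 FPKM in cKO and 83.9 and 36.7 in WT zygotes, where the highest cKO library was below the lowest WT library but each pair of replicates was more than 2-fold apart. Without WT zygote replicate 1 the rule no longer held for Ndufs5. Its limma adjusted p was 0.4 in the main fit and 0.0263 with the replicate block.

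The largest difference upward in complex I was that of Ndufa9, at 12.4 and 10.2 FPKM in cKO and 6.36 and 3.37 in WT zygotes, a log2 difference of 1.11 (SE 0.23, limma adjusted p = 0.173). The groups did not overlap, but the difference did not pass the adjustment in the main fit. It passed with the replicate block (limma adjusted p = 0.0337). Sdhb and Sdhd marked the ends of complex II, with Sdhb at 13.7 and 16.1 FPKM in cKO and 29.9 and 14.9 in WT zygotes and Sdhd at 64.0 and 49.8 FPKM in cKO and 53.3 and 36.9 in WT zygotes, differences of -0.49 and 0.34. Uqcr11 and Uqcrq, small subunits, did so in complex III, at 19.7 and 17.2 against 40.8 and 21.4 FPKM and at 96.4 and 72.9 against 72.5 and 44.6 FPKM in cKO and WT zygotes, differences of -0.66 and 0.55. Of the isoforms of complex IV, Cox4i2 was lowest at -0.79 and Cox8c highest at 0.64, both with levels near the floor. In complex V, Atp5c1 was at 67.9 and 55.9 FPKM in cKO and 123 and 83.9 in WT zygotes, a difference of -0.71, and Atp5o at 19.5 and 10.4 FPKM in cKO and 12.9 and 7.84 in WT zygotes, a difference of 0.47. The limma adjusted p was 0.597 for Uqcrq, 0.292 for Atp5c1 and 0.798 for Atp5o. With the replicate block the limma adjusted p of Atp5c1 was 0.046. As WT zygote replicate 1 was above replicate 2 for most of these genes, a difference of this size was within the spread between the WT libraries for many of them. With 2 libraries a side, the smallest two-sided p of an exact permutation test is 0.333.

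At the 2-cell stage most respiratory genes had higher levels in cKO than in WT embryos by their means, whereas the median gene of the table was lower in cKO. Both cKO libraries lay above both WT libraries for 43 of the 90 genes and below them for 14, against 14.0 and 43.4% of all genes. By the 3-fold rule 14 were higher and 1 lower, against 2.84 and 13.5% of all genes. The limma test passed 1 higher and 0 lower genes, against 0.834 and 5.93% of all genes, while unadjusted p-values under 0.05 were found for 11 higher and 2 lower genes, against 690 and 2960 of all 14392. The median log2 difference was 0.63 for these genes and -0.30 for all genes, and 1.09 and 0 after median-ratio scaling. Complex medians were 0.65 for complex I, 0.36 for complex II, 0.79 for complex III, 0.53 for complex IV, 0.75 for complex V and -0.46 for the 7 genes that are not subunits. With scaling they were 1.11, 0.82, 1.25, 1.00, 1.23 and -0.02. After scaling, the 3-fold rule gave 27 genes higher and 1 lower, and the shares of all genes given above do not apply to these counts.

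For several genes the cKO 2-cell libraries lay far apart. For Uqcr10, a small subunit of complex III, the values were 513 and 1329 FPKM in cKO and 483 and 287 in WT 2-cell embryos. For Uqcrq, also a small subunit, they were 418 and 1084 FPKM in cKO and 278 and 146 in WT 2-cell embryos. Both cKO libraries lay above both WT libraries for each gene, yet cKO replicate 2 was well above replicate 1. Atp5b and Cox4i1 went the other way between the replicates, with Atp5b at 434 and 129 FPKM in cKO and 309 and 466 in WT 2-cell embryos and Cox4i1 at 450.0 and 151 FPKM in cKO and 125 and 189 in WT 2-cell embryos. For Atp5a1 the values were 162 and 48.6 FPKM in cKO and 77.3 and 98.4 in WT 2-cell embryos, where the cKO libraries enclosed the WT libraries. Without cKO 2-cell replicate 1 the 3-fold rule gave 25 genes higher and 2 lower, without cKO 2-cell replicate 2 it gave 8 and 6, and without WT 2-cell replicate 2 it gave 3 lower. When each cKO library had to lie more than 3-fold from each WT library, 4 were higher and 1 lower.

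The difference between the cKO 2-cell replicates was related to transcript length. Across the 90 genes, which are not independent replicates and share the same libraries, the log ratio of cKO 2-cell replicate 2 to replicate 1 had a Spearman coefficient of -0.377 with transcript length, and across the 13343 genes of known length it was -0.252. In WT 2-cell embryos the same coefficients were 0.359 and 0.12. Respiratory subunits are short, and 49 of the 90 genes had transcripts under 1000 bases. The median log2 ratio of cKO replicate 2 to replicate 1 was 1.23 for these 49, 0.25 for the 41 longer ones and 0.15 for the 1088 other short genes of the table. The median log2 difference of cKO from WT 2-cell embryos was 0.66 for the 49 short and 0.50 for the 41 longer respiratory genes, compared with -0.02 for the 1088 other short genes and -0.33 for the 12206 genes of 1000 bases or more. The median difference was thus positive for both the short and the longer respiratory genes. The part of transcript length and library quality in these differences was not tested.

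Ndufaf1 was the gene called in cKO 2-cell embryos. It was at 1 and 1 FPKM in WT zygotes, 1 and 1 in cKO zygotes, 5.16 and 7.09 in WT 2-cell embryos and 48.3 and 31.0 in cKO 2-cell embryos, and rose in cKO relative to WT 2-cell embryos by 2.49 (SE 0.36, limma adjusted p = 0.0204). Both cKO libraries were well above both WT libraries at the 2-cell stage, and all 4 zygote libraries were at the floor. Its partner factors in the assembly of complex I showed another order. Ndufaf3 was at 1 and 3.03 FPKM in cKO and 11.7 and 11.8 in WT 2-cell embryos, the 1 gene lower by the 3-fold rule, with a difference of -2.17 (SE 0.75, limma adjusted p = 0.14), and Ndufaf4, which works together with Ndufaf3, was at 20.6 and 19.2 FPKM in cKO and 45.4 and 46.7 in WT 2-cell embryos, with a difference of -1.17 (SE 0.31, limma adjusted p = 0.0804). For both genes the cKO libraries lay below the WT libraries, but neither passed the adjustment. The adjusted p of Ndufaf1 was 0.0805 when only the 4 libraries of the 2-cell stage were fitted, and leaving out any of the 4 zygote libraries also took it over the threshold.

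In complex I the highest difference was that of Ndufb7, a subunit of the membrane arm, at 113 and 148 FPKM in cKO and 16.7 and 11.7 in WT 2-cell embryos, or 3.12 (SE 0.97, limma adjusted p = 0.112). Ndufa12, which is needed late in assembly, was at 129 and 72.4 FPKM in cKO and 24.8 and 11.5 in WT 2-cell embryos, or 2.45 (SE 0.72, limma adjusted p = 0.1). In neither case did the genotypes overlap. Ndufb2 was at 241 and 786 FPKM in cKO and 159.9 and 90.0 in WT 2-cell embryos and Ndufs5 at 24.7 and 32.1 FPKM in cKO and 11.7 and 1 in WT 2-cell embryos, also past 3-fold. The lowest was Ndufa1, a small subunit encoded on the X chromosome, at 71.7 and 169.8 FPKM in cKO and 387 and 183 in WT 2-cell embryos, or -1.26 (SE 1.18, limma adjusted p = 0.558), where each cKO library was below both WT libraries. In complex II, Sdhd was at 53.3 and 36.9 FPKM in WT zygotes, 64.0 and 49.8 in cKO zygotes, 10.9 and 7.01 in WT 2-cell embryos and 44.7 and 63.0 in cKO 2-cell embryos. It thus fell between the WT stages but had similar levels in the cKO stages. Its genotype by stage term, described below, was 2.13 (SE 0.71, limma adjusted p = 0.139) and was not called. The cKO-WT difference of Sdhd at the 2-cell stage was 2.47 (SE 0.68, limma adjusted p = 0.0853). This comparison shares the WT 2-cell libraries with that of the WT stages. Sdha had the lowest difference of the complex, at -0.65 (limma adjusted p = 0.424).

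In complex III all 10 genes had a positive difference, from Uqcrh, the hinge protein, at 0.22 to Uqcrq at 1.73 (limma adjusted p = 0.926 and 0.29). For Uqcrh the direction rested on single libraries, being -0.08 without WT 2-cell replicate 2 and -0.69 without cKO 2-cell replicate 2. In complex IV, Cox7c was highest, at 265 and 650.3 FPKM in cKO and 138 and 73.4 in WT 2-cell embryos, or 2.03 (SE 0.63, limma adjusted p = 0.111), and the testis form Cox6b2 lowest, or -1.35 (SE 0.73, limma adjusted p = 0.307). Cox7a2l was at 104 and 105 FPKM in cKO and 32.3 and 21.0 in WT 2-cell embryos, or 1.96 (SE 0.48, limma adjusted p = 0.0643), and the cKO replicates lay close together there. Cox7b2 was past 3-fold as well, at low levels. In complex V, Atp5j was highest, at 220.4 and 411 FPKM in cKO and 95.3 and 77.7 in WT 2-cell embryos, or 1.80 (SE 0.66, limma adjusted p = 0.157), and Atp5j2, subunit f of the membrane part, was at 194 and 658 FPKM in cKO and 131 and 86.6 in WT 2-cell embryos. Atp5b had the lowest difference, -0.68, which was 0.19 without cKO 2-cell replicate 2. Apart from Ndufaf1 none of these genes passed the adjustment in the full data. With 1 variance for all groups limma called 12 genes higher and 3 lower, and with only genes of a mean of at least 5 FPKM 5 higher and 1 lower. Ndufb7 and Sdhd were among those called in both cases, with limma adjusted p = 0.00304 and 0.00415 in the first. The shares of all genes given above belong to the main fit and do not apply to these counts.

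**Figure D3:**
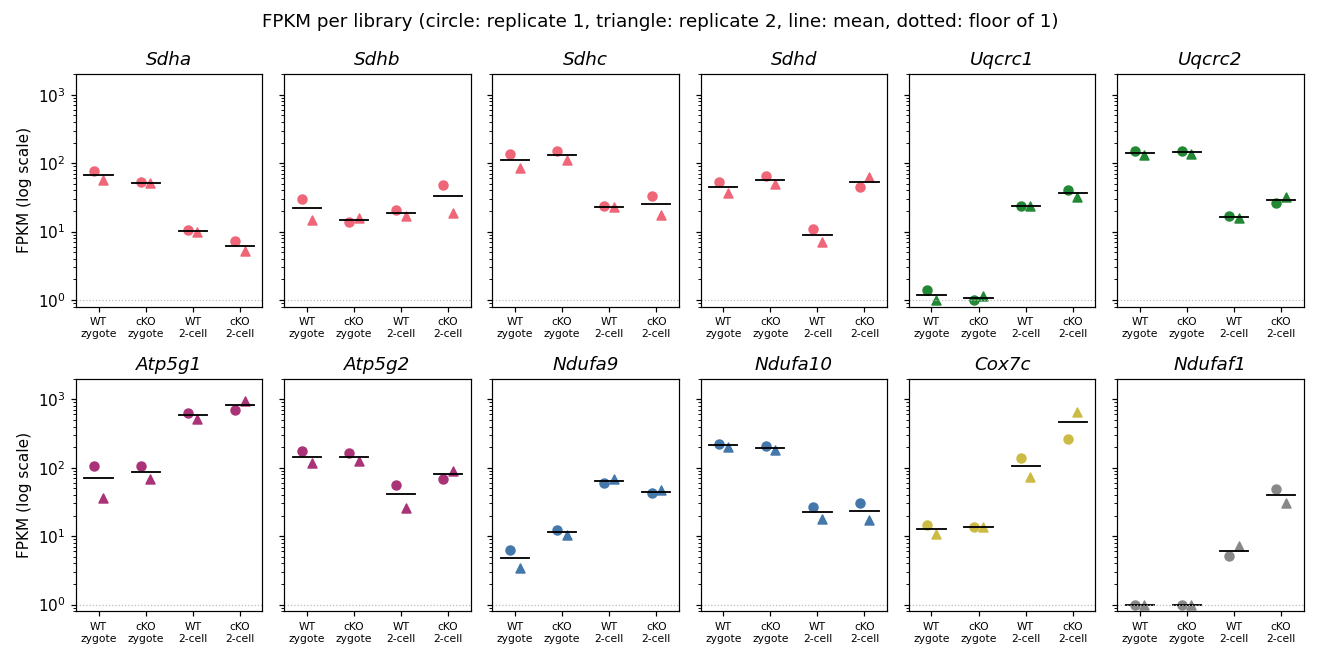
FPKM of 12 genes in each of the 8 libraries, on a log axis, with 1 the floor of the table. Uqcrc1 and Uqcrc2 cross between the stages, with Uqcrc1 at 1.40 and 1 in WT zygotes and 24.1 and 23.3 in WT 2-cell embryos and Uqcrc2 at 152 and 133 and 16.9 and 16.0, and Ndufaf1 is above the floor only in the 2-cell libraries.

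Between the stages of cKO embryos, 26 of the 90 genes rose and 9 fell in limma, against 20.7 and 18.2% of all genes. The rises of Cox7b2, Atp5s and Ndufaf1, at the floor in all 4 zygote libraries, restate the table's filter. By the 3-fold rule 37 were higher and 12 lower, against 22.8 and 19.2% of all genes. The median log2 difference was 0.94, compared with 0 for all genes, and 1.10 and 0 after scaling. Complex medians were 0.98 for complex I, -1.22 for complex II, 2.86 for complex III, 0.27 for complex IV, 1.08 for complex V and -0.74 for the 7 other genes. This comparison shares no library with that of the WT stages, though both draw on 1 model. Of the genes that rose, 20 did so in both genotypes, which is 74.1% of the 27 in WT and 76.9% of the 26 in cKO embryos, compared with 51.7 and 91.3% for all genes that rose. All 9 that fell in cKO also fell in WT, which is 45% of the 20 in WT, compared with 78% for all genes that fell in WT and 63.6% for those that fell in cKO, and 0 of the respiratory genes were called in opposite directions. The 9 were Cox6a2, Ndufa10, Ndufab1, Ndufaf2, Ndufaf4, Ndufs4, Sdha, Sdhc and Uqcrc2.

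The genes that changed most in cKO embryos were mostly those that did so in WT. Cox7c was at 13.8 and 13.5 FPKM in cKO zygotes and 265 and 650.3 in cKO 2-cell embryos, and rose by 4.83 (SE 0.54, limma adjusted p = 0.00148). Uqcrc1 rose by 4.18 (SE 0.35, limma adjusted p = 0.000669), and Uqcrfs1, at 11.7 and 8.63 FPKM in cKO zygotes and 154 and 229 in cKO 2-cell embryos, by 4.09 (SE 0.49, limma adjusted p = 0.00178). Cyc1 was at 1.82 and 2.36 FPKM in cKO zygotes and 37.4 and 32.6 in cKO 2-cell embryos and rose by 3.54 (limma adjusted p = 0.012). In each case both 2-cell libraries were far above both zygote libraries. In complex I, Ndufc1 rose by 4.47 and Ndufa10 fell by 3.03 (limma adjusted p = 0.00178 and 0.00239). In complex V, Atp5j rose by 4.10 and Atp5o by 3.90 (limma adjusted p = 0.00281 and 0.0206), and Atp5g2 had the lowest difference, -0.84 (limma adjusted p = 0.391). In complex II, 2 of the 4 genes fell, Sdha at -2.88 and Sdhc at -2.36 (limma adjusted p = 0.00245 and 0.037), while Sdhb, at 13.7 and 16.1 FPKM in cKO zygotes and 48.0 and 18.7 in cKO 2-cell embryos, was not called. Ndufa8 was at 76.0 and 70.2 FPKM in cKO zygotes and 31.4 and 4.89 in cKO 2-cell embryos, and Ndufaf3 at 8.41 and 6.21 FPKM in cKO zygotes and 1 and 3.03 in cKO 2-cell embryos, and neither was called. Outside the subunits, Ndufaf1 rose by 4.31 and Atp5s by 3.71, and Ndufaf4 fell by 2.28 (limma adjusted p = 0.000575, 0.00113 and 0.00177).

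A call in 1 genotype alone does not show that the genotypes differed. The counts in cKO fell to 7 genes higher without cKO 2-cell replicate 2, to 11 higher and 4 lower without cKO 2-cell replicate 1, and to 12 higher when either WT 2-cell library was left out. Under every alternative that was run, 7 of the 26 that rose (Atp5s, Cox7c, Ndufaf1, Ndufb10, Ndufc1, Uqcrc1 and Uqcrfs1) and 4 of the 9 that fell (Ndufa10, Ndufaf4, Sdha and Uqcrc2) kept an adjusted p under the threshold, with the same limit for Atp5s and Ndufaf1. Sdhc, Atp5o and Atp5j reached 0.293, 0.188 and 0.0516 in adjusted p without cKO 2-cell replicate 2. The adjusted p of Cyc1 was 0.119 without cKO 2-cell replicate 1.

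Whether the stage change differed between genotypes was tested with the genotype by stage term, which is positive where the cKO-WT difference is higher in 2-cell embryos than in zygotes. In limma 1 of the 90 genes had a higher and 0 a lower term, against 0.605 and 4.55% of all genes, and unadjusted p-values under 0.05 were found for 8 positive and 2 negative terms, against 596 and 2884 of all 14392. The gene was Ndufaf1, at 2.49 (SE 0.38, limma adjusted p = 0.0258), and since it was at the floor in every zygote library, the term equals its 2-cell difference. Ndufaf4 lay just outside the threshold at -1.61 (SE 0.33, limma adjusted p = 0.05005), with cKO zygotes at 98.1 and 102 FPKM, WT zygotes at 69.2 and 79.1 and the 2-cell levels given before. Ndufaf1 was not called for this term with the replicate number as a block (0 genes higher), nor when any of the 4 zygote libraries was left out.

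Other genes that serve the chain were described from lists of known function. Of 41 further assembly factors, all measured, 19 rose and 5 fell between the WT stages and 18 rose and 4 fell between the cKO stages, where limma called 36.6 and 14.9% of all genes in WT and 20.7 and 18.2% in cKO, and it called 0 in cKO against WT zygotes and 0 in 2-cell embryos. Sco1, which delivers copper to complex IV, was at the floor in all zygote libraries and at 7.75 and 9.99 FPKM in WT and 6.18 and 7.65 in cKO 2-cell embryos. Cox17, the copper chaperone before it, was at 11.0 and 12.1 FPKM in WT zygotes, 20.9 and 12.6 in cKO zygotes, 126 and 74.7 in WT 2-cell embryos and 215 and 269 in cKO 2-cell embryos, and rose in WT embryos by 2.97 (limma adjusted p = 0.00313). Cox10, which takes part in making heme A for complex IV, was at 124 and 86.9 FPKM in WT zygotes and 121 and 92.2 in cKO zygotes. In 2-cell embryos Cox10 was at 43.8 and 39.4 FPKM in WT and 14.1 and 10.4 in cKO. Its WT stage difference was -1.30 (limma adjusted p = 0.0304). Cox15, which acts after Cox10, was close to the floor and was not called. Of 15 genes for the upkeep and transcription of mitochondrial DNA, 7 rose and 3 fell in WT and 8 rose and 2 fell in cKO embryos, against the same shares of all genes. Foxred1, Uqcc3, Sco1 and Polg2, which were at the floor in all zygote libraries, passed the filter only through 2-cell libraries and had to be higher there. The paired factors Tfb1m and Tfb2m crossed, with Tfb1m, now known as a methylase of ribosomal RNA, at 169 and 157 FPKM in WT zygotes and 21.5 and 21.3 in WT 2-cell embryos and Tfb2m, the transcription factor, at 20.2 and 25.4 FPKM in WT zygotes and 143 and 147 in WT 2-cell embryos. Their differences were -2.87 (limma adjusted p = 9.3e-05) and 2.63 (limma adjusted p = 0.000336). Tfam, which packages mitochondrial DNA, was at 2.76 and 2.78 FPKM in WT zygotes, 4.41 and 2.49 in cKO zygotes, 4.25 and 4.24 in WT 2-cell embryos and 13.9 and 8.97 in cKO 2-cell embryos, and was not called in WT embryos.

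Of 11 nuclear regulators of respiratory genes 10 were measured, and limma called 7 higher and 1 lower in each genotype between the stages, against 36.6 and 14.9% of all genes in WT and 20.7 and 18.2% in cKO. Of these calls, those of Gabpa, Gabpb2 and Creb1 in both genotypes and of Esrra in cKO restate the table's filter, as these genes were at the floor in all 4 zygote libraries. Gabpa, the ETS factor also called NRF2, was at 91.2 and 89.2 FPKM in WT and 138 and 131 in cKO 2-cell embryos. Yy1 was at 1.62 and 2.88 FPKM in WT zygotes, 2.65 and 2.25 in cKO zygotes, 55.4 and 43.6 in WT 2-cell embryos and 68.0 and 62.5 in cKO 2-cell embryos, and rose by 3.98 (limma adjusted p = 0.000236). Nrf1 was at 33.5 and 23.9 FPKM in WT zygotes, 26.0 and 21.0 in cKO zygotes, 32.7 and 29.9 in WT 2-cell embryos and 43.2 and 52.5 in cKO 2-cell embryos, and was not called (limma adjusted p = 0.768). The regulators of these families thus started from different maternal levels. Esrra, at 2.09 and 1.85 FPKM in cKO 2-cell embryos and at the floor in all other libraries, was the 1 regulator called in cKO against WT 2-cell embryos, at 0.57 (limma adjusted p = 0.0218), but it passed the table's filter only through the group in which it was high, so this call restates the filter. Of 20 genes for handling ATP and electrons around the chain, 7 rose and 5 fell in WT and 5 rose and 4 fell in cKO embryos, close to the shares of all genes except for the genes that fell in WT, although the rise of Etfdh, at the floor in all zygote libraries, restates the filter, with 0 called in cKO against WT embryos at either stage. Vdac1 and Vdac3, channels of the outer membrane, crossed in WT embryos, Vdac1 at 31.6 and 32.3 FPKM in WT zygotes and 127 and 92.1 in WT 2-cell embryos and Vdac3 at 464 and 318 FPKM in WT zygotes and 71.4 and 73.4 in WT 2-cell embryos, with differences of 1.73 (limma adjusted p = 0.00636) and -2.39 (limma adjusted p = 0.00148). Slc25a5, an ADP/ATP carrier, was at 264 and 153 FPKM in WT zygotes, 251 and 211 in cKO zygotes, 266 and 173 in WT 2-cell embryos and 180.0 and 311 in cKO 2-cell embryos, with overlapping groups.

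The promoters of these genes were searched for 3 sequence motifs tied to respiratory genes, in the 250 bases before and 50 after the gene start from RefSeq on build GRCm38.p6, on both strands. For 74 of the 90 genes a promoter was found. The NRF1 motif GCGCNTGCG was present in 26 (35.1%), compared with 7.12% of the promoters of all 27025 genes and 14.0% of those of 10168 genes of the table. The ETS motif CCGGAAG was present in 17 (23.0%), compared with 9.93 and 17.9%, and the YY1 motif AAGATGGCG in 8 (10.8%), compared with 1.64 and 3.15%. At least 1 of the 3 was found in 42 (56.8%), compared with 16.6 and 30.7%, and matches of different motifs overlapped in 0 cases. Of the genes that rose between the WT stages, 23 had a promoter and 6 of these the NRF1, 3 the ETS and 3 the YY1 motif. Of those that fell, 17 had a promoter and 7 the NRF1, 2 the ETS and 2 the YY1 motif, and of those not called 34 had a promoter and 13, 12 and 3 the motifs. A match is a description of the letters, and binding was not measured.

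The promoters of genes at the ends of these changes are shown 5′ to 3′ along the gene, with the matched motif in capitals, so that genes which rose and fell can be compared. Uqcrc1, which rose from the floor, lies at chr9:108936398-108936697 on the plus strand and holds 2 NRF1 matches. The later of these reads as the motif on both strands and was counted as 1 match. Sdha, which fell, lies at chr13:74350191-74350490 on the minus strand and holds 3, all on the other strand. Atp5o, which rose, lies at chr16:91931581-91931880 on the minus strand and holds 1 NRF1 match, and Ndufa8, which fell, lies at chr2:36049289-36049588 on the minus strand and holds 2. Ndufa9, which rose, lies at chr6:126849095-126849394 on the minus strand, and Ndufs4, which fell, at chr13:114388045-114388344 on the minus strand, and each holds 1 YY1 match. Ndufaf1, the gene higher in cKO 2-cell embryos, lies at chr2:119662785-119663084 on the minus strand and holds 1 ETS match. Atp5j, which rose, lies at chr16:84834927-84835226 on the minus strand and holds an ETS and a YY1 match, while its other promoter in RefSeq, at chr16:84835576-84835875 on the minus strand, holds 0 matches. The same motifs thus stood before genes of either direction.
Uqcrc1: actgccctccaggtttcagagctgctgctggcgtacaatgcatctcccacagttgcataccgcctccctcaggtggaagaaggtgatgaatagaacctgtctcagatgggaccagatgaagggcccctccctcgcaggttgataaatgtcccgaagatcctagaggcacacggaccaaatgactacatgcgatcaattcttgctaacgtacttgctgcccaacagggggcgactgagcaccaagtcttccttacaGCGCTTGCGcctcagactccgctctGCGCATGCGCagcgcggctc
Sdha: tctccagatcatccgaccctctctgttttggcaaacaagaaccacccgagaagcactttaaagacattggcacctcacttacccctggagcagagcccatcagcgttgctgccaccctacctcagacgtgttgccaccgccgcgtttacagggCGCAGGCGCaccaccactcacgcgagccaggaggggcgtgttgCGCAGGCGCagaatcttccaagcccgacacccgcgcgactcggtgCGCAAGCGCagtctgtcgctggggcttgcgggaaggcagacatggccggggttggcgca
Atp5o: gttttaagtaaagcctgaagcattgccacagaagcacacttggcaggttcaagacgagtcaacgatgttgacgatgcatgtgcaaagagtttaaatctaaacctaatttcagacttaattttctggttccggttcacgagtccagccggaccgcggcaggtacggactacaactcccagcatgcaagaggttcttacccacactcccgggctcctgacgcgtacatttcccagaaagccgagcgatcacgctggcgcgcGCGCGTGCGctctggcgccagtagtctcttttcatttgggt
Ndufa8: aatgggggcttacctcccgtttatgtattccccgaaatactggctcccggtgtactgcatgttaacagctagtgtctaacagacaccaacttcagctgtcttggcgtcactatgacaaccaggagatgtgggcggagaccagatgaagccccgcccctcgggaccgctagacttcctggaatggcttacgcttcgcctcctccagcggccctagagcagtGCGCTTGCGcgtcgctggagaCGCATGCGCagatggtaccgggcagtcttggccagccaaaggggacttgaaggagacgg
Ndufa9: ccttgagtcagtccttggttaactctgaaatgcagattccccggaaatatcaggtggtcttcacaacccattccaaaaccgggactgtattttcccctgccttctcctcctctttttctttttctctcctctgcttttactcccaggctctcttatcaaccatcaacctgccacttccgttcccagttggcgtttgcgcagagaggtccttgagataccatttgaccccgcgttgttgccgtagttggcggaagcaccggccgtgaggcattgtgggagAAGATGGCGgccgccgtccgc
Ndufs4: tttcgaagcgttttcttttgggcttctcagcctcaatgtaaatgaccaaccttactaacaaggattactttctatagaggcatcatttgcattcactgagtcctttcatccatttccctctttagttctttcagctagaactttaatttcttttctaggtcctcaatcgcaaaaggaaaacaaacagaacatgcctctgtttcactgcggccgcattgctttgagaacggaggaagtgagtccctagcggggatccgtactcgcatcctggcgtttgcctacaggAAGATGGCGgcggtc
Ndufaf1: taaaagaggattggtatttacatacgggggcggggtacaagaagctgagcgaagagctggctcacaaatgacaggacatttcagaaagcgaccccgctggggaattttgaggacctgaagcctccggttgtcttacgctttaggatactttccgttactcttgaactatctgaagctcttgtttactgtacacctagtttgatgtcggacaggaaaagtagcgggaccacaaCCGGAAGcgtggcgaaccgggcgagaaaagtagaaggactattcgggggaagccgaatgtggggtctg
Atp5j: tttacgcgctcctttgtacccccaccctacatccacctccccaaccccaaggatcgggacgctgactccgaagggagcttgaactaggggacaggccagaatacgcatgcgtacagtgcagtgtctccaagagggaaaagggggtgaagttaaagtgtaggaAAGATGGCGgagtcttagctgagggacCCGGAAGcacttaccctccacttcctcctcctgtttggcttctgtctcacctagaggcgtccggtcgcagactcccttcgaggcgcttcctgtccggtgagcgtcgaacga

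Some of these values are uncertain because of shared sequence. A near-identical copy of the coding sequence, at 95% identity over at least 80% of its length, lies elsewhere in the mouse genome for 22 of the 90 genes, most of all for Atp5l with 8 copies, Cycs with 5, and Atp5h and Cox7c with 4. Others with values given here were Atp5g1, Atp5g2, Atp5o, Cox5b, Cox7b, Ndufa12, Ndufab1, Ndufs3, Ndufs5 and Uqcr11. Reads of such genes can be split between the copies. Exons of 18 genes overlap another gene, and Smart-seq2 does not keep the strand. Atp5j overlaps Gabpa on the other strand, and the rise of both in 2-cell embryos cannot be told apart from reads of either. Uqcrc2 overlaps Pdzd9, Cox6a2 overlaps Itgad, Cox5a overlaps Gm17596, Ndufa2 overlaps Tmco6, Ndufs1 overlaps Gm11602, and Atp5o overlaps Donson on its own strand. Ndufs3 overlaps Kbtbd4, and Ndufb2 overlaps Adck2 on its own strand and Braf on the other. Outside the respiratory genes, Usp16 overlaps Cct8 on the other strand. Without the 22 genes that have a copy, 21 rose and 14 fell between the WT stages, a choice made after seeing the data.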

How the data were processed

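RNA was measured in 8 Smart-seq2 libraries of 4 groups, with 2 libraries a group, sequenced on an Illumina instrument. The 7 H2AK119ub1 ChIP samples were not used here. Trimmed reads were aligned by the authors to mm9 (TopHat2 2.1.1), and FPKM values from Cufflinks 2.2.1 were deposited as 1 table. The authors excluded genes under 1 FPKM in all samples and set lower values to 1. What "normalized" FPKM meant and the gene annotation were not given in the sources used here. FPKM holds no counts, so depth is unknown and precision rests on 2 libraries a group.

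From these values limma 3.58.1 (R 4.3.3) was fitted to log2(FPKM + 1) over all 14392 genes, with a trend in the prior, a variance for each group and 4 residual degrees of freedom. Benjamini-Hochberg adjustment over all genes was used at a threshold of 0.05, for 4 comparisons of groups and the genotype by stage term. Differences on this scale understate changes of low genes. The study's 3-fold rule was applied to group means, which was chosen here because the combination of replicates was not stated. Over all genes it gave 15 higher and 7 lower in cKO zygotes. In cKO 2-cell embryos it gave 409 higher and 1940 lower. These equal the counts that the study reports. Both limma and the fold rule were tested on simulated data. Other steps used Python 3.11.15, pandas 2.3.3, numpy 2.4.6 and scipy 1.17.1, figures matplotlib 3.10.9 and copies of coding sequences BLAST+ 2.17.0 against mm9. Promoters were taken from RefSeq.

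The alternatives were the log2 of FPKM without a pseudocount, a filter at a mean of 5 FPKM, median-ratio scaling, 1 variance for all groups, the replicate number as a block, the libraries of a comparison alone, other fold rules and leaving out each library in turn. In the last case a lone library was taken to vary like its group. The crossed block and the removal of genes with a copy were added after seeing the data. Genes named were Usp16, core subunits, tissue-specific paralogs, the lowest and highest difference of each complex in each comparison, and up to 10 genes a direction by the 3-fold rule. Ndufs3, Ndufab1, Ndufaf2, Ndufaf4, Uqcr10 and genes named from the lists of related genes were chosen after their values were seen, as were the promoter motifs. Genes and lists were chosen with earlier results of these data known.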

Additional observations from a re-analysis of the deposited data

Results flagged for a closer look

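The genotype by stage term of limma passed the threshold in the full data for 3 of the respiratory genes and the lists of related genes, though not under every alternative, and for 87 higher and 655 lower of all 14392 genes. For Ndufaf1 the term was 2.49 on the log2 scale (limma adjusted p = 0.0258), with 48.3 and 31.0 FPKM in cKO and 5.16 and 7.09 in WT 2-cell embryos and the floor in all zygote libraries, so that the term repeats its 2-cell difference, and over the alternatives the adjusted p lay between 0.0146 and 0.0727. For Coq3, a methyltransferase of ubiquinone synthesis, the term was 2.096 (limma adjusted p = 0.0471), with 5.36 and 4.87 FPKM in cKO and 7.35 and 6.63 in WT zygotes and 31.0 and 52.8 in cKO and 13.2 and 10.3 in WT 2-cell embryos, and the adjusted p lay between 0.0328 and 0.146. For Esrra, a nuclear receptor that regulates respiratory genes, it was 0.57 (limma adjusted p = 0.0274), with 2.09 and 1.85 FPKM in cKO 2-cell embryos and the floor in every other library. Esrra thus entered the table only through the group in which it was high, and its term restates that filter. Its adjusted p lay between 0.00305 and 0.0727. Both cKO libraries were above both WT libraries at the 2-cell stage for all 3 genes. The cause was not tested.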

How the results depend on the processing

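Apart from leaving out libraries, these settings moved counts by more than 1.5 times. The counts are of the respiratory genes, and the shares of all genes given above belong to the main settings. In limma, for cKO against WT zygotes counts were 4 higher and 2 lower with the replicate block, and Ndufa9, Ndufs5 and Atp5c1 were among these, with limma adjusted p = 0.0337, 0.0263 and 0.0464. For 2-cell embryos they were 5 higher and 1 lower with the filter at 5 FPKM, 12 higher and 3 lower with 1 variance for all groups, 3 higher with the replicate block and 0 with the 4 libraries alone. For genotype by stage they were 1 lower with the filter, 4 higher and 2 lower with 1 variance, and 0 higher with the replicate block. By the fold rule, 9 were lower between the WT stages and 7 between the cKO stages when every library had to pass. In zygotes 1 was higher and 3 lower at 2-fold, and 0 lower when every library had to pass. In 2-cell embryos 29 were higher and 5 lower at 2-fold, 4 higher when every library had to pass and 27 higher with median-ratio scaling. The other planned settings that kept every library left the counts within 1.5 times. The cause was not tested.

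The replicate numbers are shared by the groups with no pairing described. Deviations of same-numbered libraries correlated at 0.11 for the WT stages, 0.497 for zygotes, -0.239 for 2-cell embryos and 0.0428 for the cKO stages. With the numbers of the cKO 2-cell libraries crossed, a setting chosen after seeing the data, limma called 3 higher in cKO 2-cell embryos and 2 higher for genotype by stage.

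Leaving out each library in turn, limma called 10 to 38 higher and 9 to 23 lower between the WT stages, 0 to 0 in zygotes in either direction, 0 to 2 higher and 0 to 0 lower in 2-cell embryos, 7 to 32 higher and 4 to 12 lower between the cKO stages, and 0 to 2 higher and 0 to 1 lower for genotype by stage. The fold rule gave 21 to 31 higher and 13 to 17 lower, 0 to 2 and 0 to 3, 8 to 25 and 1 to 6, and 32 to 40 and 9 to 12 in the same order of comparisons. Directions that turned belonged to genes that were not called. The log2 difference of Sdhb between the WT stages ranged from -0.66 to 0.30, being 0.30 without WT zygote replicate 1. That of Uqcrh in 2-cell embryos ranged from -0.69 to 1.13, being -0.08 without WT 2-cell replicate 2 and -0.69 without cKO 2-cell replicate 2, and that of Atp5b from -1.54 to 0.19, being 0.19 without cKO 2-cell replicate 2. With 2 libraries a group and unknown depth, small differences of low genes cannot be resolved.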
